A study of Mus musculus with 19 samples.

Results

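Brain endothelial cells (bECs) line the vessels of the brain and form the blood-brain barrier. Chronic social defeat (CSD) for 7 days (CSD7, 4 mice) is set here against 1 day (CSD1, 3 mice). These are 7 arrays of the 19 in the series, assigned to their group by the labels. The comparison and the gene lists were chosen with earlier results of these data known. In this mouse model of psychosocial stress, a male C57BL/6N mouse lived in the cage of an aggressive CD-1 male behind a perforated partition and met it once a day. The labels give 10 minutes for the daily encounter and the methods a shorter time. CSD7 mice had 7 such days, CSD1 mice 1 day; CSD14 mice (4) had 14 days, and CSDrec mice (4) had 14 days followed by 7 days in a home cage. The last 2 groups entered the fit to estimate the spread, and no array of an unstressed home cage mouse was used. All mice were wild type, and each array held RNA of cells from 1 brain without cerebellum, brainstem and meninges, sorted as CD31 positive nucleated live cells, CD31 being an adhesion protein of endothelium that blood cells can also carry. CSD7 mice, like CSD14 and CSDrec mice, were tested for behavior the day before and chosen for stress susceptibility, while mice with a single defeat were not tested, so duration and this choice cannot be told apart. Per the methods, brains of defeated mice were taken many hours after the last defeat session and digested with enzymes before sorting. The values thus do not cover the first hours after a defeat, and the part of the digestion in them was not tested. Animals are called by the number in their label: 9, 16, 17 and 25 in CSD7, and 4, 18 and 19 in CSD1.

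Endothelial cells answer a first stressor within hours. Glucocorticoids from the adrenal gland bind their receptor in these cells and switch on genes for feedback and metal binding, inflammatory signals act through NF-kB and STAT3 on venous endothelium above all, and mechanical and growth factor signals act through YAP, TGF-beta and BMP pathways on matrix genes. Arteries, capillaries and veins of the brain each express their own genes, so arterial and venous markers can be read apart in a bulk sample. Fewer cells of a kind and less RNA per cell cannot be told apart in such samples. All values are log2 intensities as deposited, and a difference is CSD7 minus CSD1.

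The sorted cells carried endothelial genes at a high level in both groups. The mean over 24 endothelial identity genes was between 10.01 and 10.36 in CSD7 animals and between 10.19 and 10.32 in CSD1 animals. The lowest mean, 10.01, belonged to CSD7 animal 9. Among the 24 genes 6 had a positive and 18 a negative difference, with a median of -0.057 that ran from -0.091 to 0.069 over all settings. A row was read as expressed above log2 3.10, the 95th percentile of 1567 rows for olfactory, vomeronasal and taste receptors, which have no known role in endothelium. The array of CSD7 animal 9 stood furthest from the rest, with a mean correlation of 0.984 with the other 14 arrays, against 0.988 to 0.992 for those.

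No row of the 65956 tested passed the threshold between 7 days and 1 day of defeat. The limma fit called 0 rows higher (0%) and 0 rows lower (0%) in CSD7 after Benjamini-Hochberg adjustment, with a lowest adjusted p of 0.9998. At an unadjusted p below 0.05 there were 783 rows higher (1.19%) and 1063 lower (1.61%). Animals of the 2 groups did not overlap in 1183 rows with CSD7 higher (1.79%) and in 882 with CSD7 lower (1.34%). Among the 18688 expressed rows with 1 gene symbol, 178 had such a p with CSD7 higher (0.952%) and 478 with CSD7 lower (2.56%), 181 (0.969%) and 240 (1.28%) did not overlap, and 150 (0.803%) and 279 (1.49%) differed by 1.3-fold or more in the same order. With 4 against 3 animals there are 35 arrangements, so an exact permutation test of a single gene can give no two-sided p below 0.0571. A gene without any difference would lack overlap, in 1 direction or the other, with that same probability. The shares of rows without overlap, taken over both directions, do not exceed it. On expressed rows the 95% interval of a difference reached a median of 0.23 to either side, a factor of 1.17. That interval is unadjusted and holds for 1 row at a time. With 65956 rows tested, far larger differences, such as that of Gkn3 below, did not pass either. The lack of calls thus does not show that single genes were unchanged. The genes below are therefore described by their values in each animal, and none of them is a call. Those named by size of difference were picked for lack of overlap and an unadjusted p below 0.05. Neither is thus a result about them.

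**Figure D1:**
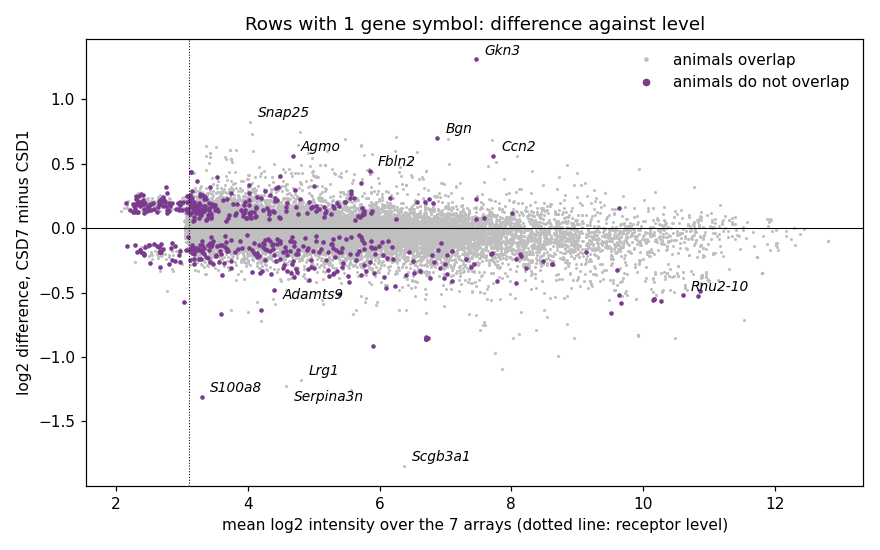
Difference between CSD7 and CSD1 (vertical axis, log2) against the mean level over the 7 arrays (horizontal axis, log2 intensity) for rows with 1 gene symbol, with rows whose animals do not overlap in purple. Gkn3 (1.31) and Scgb3a1 (-1.84) lie furthest from 0, and Scgb3a1 is grey because CSD1 animal 4 lies within the CSD7 range.

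Gkn3, gastrokine 3, which in the brain marks arterial endothelium, had the largest positive difference of any row. Its level was 7.37, 8.09, 8.07 and 8.60 in CSD7 animals 9, 16, 17 and 25, against 6.97, 6.75 and 6.44 in CSD1 animals 4, 18 and 19. Every CSD7 animal lay above every CSD1 animal, and the lowest of the CSD7 values belonged to animal 9. The difference was 1.31 (SE 0.28), a factor of 2.48 with a 95% interval from 0.72 to 1.90 on the log2 scale, an unadjusted p of 0.00029 and an adjusted p of 0.9998 in limma. In the later groups Gkn3 lay between 7.81 and 8.92 in CSD14 and between 8.62 and 9.14 in CSDrec, so no defeated mouse outside CSD1 had a level as low as the 3 CSD1 mice. Over 18 other settings the difference was between 1.12 and 1.66, and it passed the threshold in 1 of them, the fit with array weights (1.59, adjusted p = 0.0386 in limma). Within CSD1 that fit rests mostly on animal 19, which has the lowest Gkn3 value. Its weight was 8.89, against 0.40 and 1.08 for CSD1 animals 4 and 18.

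Several genes of the extracellular matrix and of TGF-beta and BMP signaling were among those with larger positive differences. Bgn, biglycan, a small proteoglycan of the vessel wall that binds TGF-beta and collagen, was at 7.65, 7.06, 6.74 and 7.26 in CSD7 animals 9, 16, 17 and 25 and at 6.53, 6.65 and 6.25 in CSD1 animals 4, 18 and 19. The groups did not overlap, though CSD7 animal 17 was only slightly above the highest CSD1 animal (difference 0.70, SE 0.18). Ccn2, connective tissue growth factor, a matricellular protein and a standard YAP and TGF-beta target, was at 8.08, 7.70, 8.26 and 7.84 in the same CSD7 animals and at 7.08, 7.58 and 7.55 in the CSD1 animals (difference 0.56, SE 0.17). Here the CSD1 animal furthest below was animal 4. Without it the difference was 0.40.

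Fbln2, fibulin 2, a glycoprotein of elastic fibers and basement membranes, differed by less but with little spread. It was at 5.85, 6.01, 6.00 and 6.31 in CSD7 and at 5.60, 5.69 and 5.51 in CSD1, which do not overlap (difference 0.45, SE 0.10, unadjusted p = 0.00046 and adjusted p = 0.9998 in limma). Fbln2 lay between 6.03 and 6.27 in CSD14 and between 6.30 and 6.53 in CSDrec, above all CSD1 animals. Fbln5, fibulin 5, needed for elastic fiber assembly, had the largest difference of the matrix list (0.59, SE 0.24), yet CSD1 animal 18 at 6.72 lay above 3 of the 4 CSD7 animals. Without CSD7 animal 25, the highest at 7.54, its difference was 0.35, and without CSD1 animal 4, the lowest at 5.75, also 0.35. Of 24 matrix and basement membrane genes measured, 17 had a positive difference with a median of 0.071, against a median of 0.013 over all rows. An unadjusted p below 0.05 was found for 2, Fbln2 and Fbln5, where 0.952% of expressed rows had such a p with CSD7 higher. Fbln2 had itself been named by a rule that required such a p, so this count is not a result about the list.

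Bmp6, a BMP ligand that endothelial cells secrete, was at 5.99, 5.69, 5.89 and 5.90 in CSD7 and at 5.33, 5.66 and 5.54 in CSD1 (difference 0.35, SE 0.12). CSD7 animal 16 and CSD1 animal 18 almost met. Bambi, a pseudoreceptor that dampens TGF-beta and BMP signals, was at 5.22, 5.07, 5.16 and 5.16 in CSD7 and at 4.73, 5.00 and 4.73 in CSD1 (difference 0.33, SE 0.12). Tgfb2, a TGF-beta ligand, had a difference of 0.28 (SE 0.12), with CSD7 animal 9 at 7.83 inside the CSD1 range and the remaining CSD7 animals at 8.28 to 8.37, above the CSD1 animals at 7.82 to 8.06. In the list of 30 growth factor genes, 18 had a positive difference, with a median of 0.028.

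The mean over the YAP targets was higher in every CSD7 animal than in any CSD1 animal, while their median was not. YAP and its partner TAZ are transcription cofactors that respond to stretch, shear and cell density. The mean over 14 targets was 6.13, 6.02, 6.13 and 6.14 in CSD7 animals 9, 16, 17 and 25, against 5.88, 5.98 and 5.94 in CSD1 animals 4, 18 and 19. Ccn2, 1 of these targets, had itself been named for its size and lack of overlap. Only on this mean, among those of the 30 pathway lists, did the 2 groups not overlap. On the median of the same genes they did, with CSD7 animal 9 at 6.13 and the other CSD7 animals at 6.27 to 6.32, against 6.15 to 6.20 in CSD1, so that animal 9 was the lowest of the 7. Of the 14 genes 13 had a positive difference with a median of 0.11, and 3 had an unadjusted p below 0.05 (Ccn2, Ccn1 and Tgfb2), where 0.952% of expressed rows had such a p with CSD7 higher. Ccn1, the other matricellular member, was at 9.11, 8.69, 9.13 and 9.28 in CSD7 and at 8.25, 8.97 and 8.46 in CSD1 (difference 0.49, SE 0.20), so CSD1 animal 18 lay within the CSD7 range. The median of the list was between 0.074 and 0.16 over all settings run. In the later groups the mean was 5.96 to 6.08 in CSD14 and 6.02 to 6.06 in CSDrec, where Ccn2 itself was at 6.90 to 7.17, below 2 of the 3 CSD1 animals and below every CSD7 animal.

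**Figure D2:**
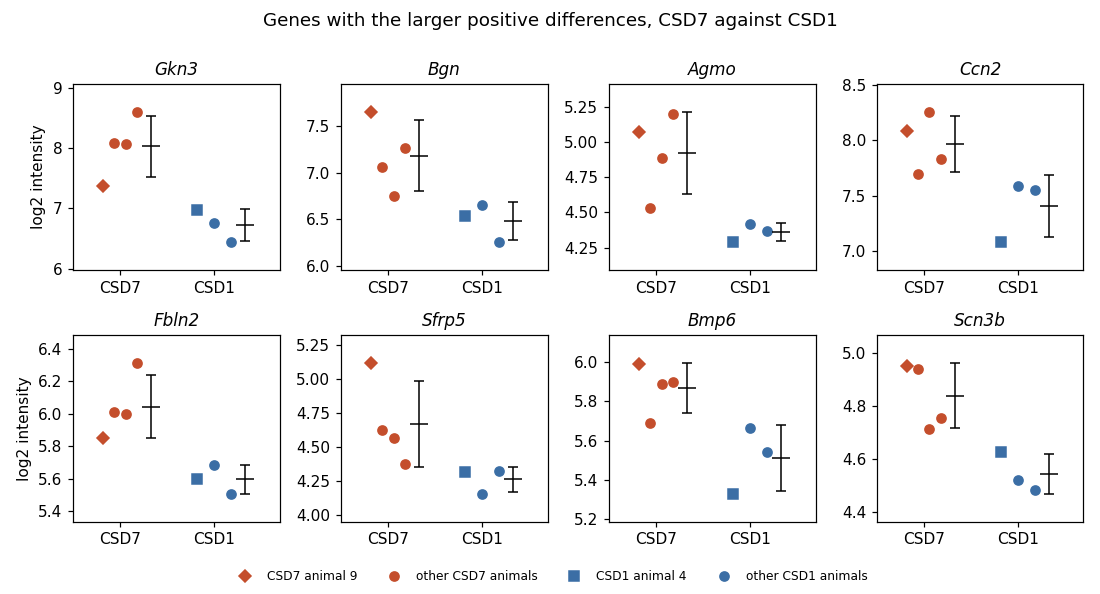
Log2 intensity (vertical axis) of 8 genes with larger positive differences in each CSD7 animal (left) and each CSD1 animal (right), with the mean and SD of each group in black. In each panel every CSD7 animal lies above every CSD1 animal, which the rule that chose these genes required. For Gkn3 the means are 8.03 and 6.72.

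The upstream sequences of genes at both ends of the comparison are shown to place these genes on the genome. They come from RefSeq on GRCm38.p6, run from 250 bases before to 50 bases after the annotated start in the direction of transcription, and capitals mark matches to 3 short motifs searched on both strands: AGAACA or TGTTCT (the glucocorticoid receptor motif), CACGTG (an E-box bound by clock and related factors) and TGACG or CGTCA (the CREB motif). Gkn3 (chr6:87388886-87389185, minus strand), Bgn (chrX:73483351-73483650, plus strand) and Bmp6 (chr13:38345466-38345765, plus strand) had positive differences. Scgb3a1 (chr11:49663345-49663644, plus strand) and Serpina3n (chr12:104406458-104406757, plus strand), described further on, had negative differences.
Gkn3: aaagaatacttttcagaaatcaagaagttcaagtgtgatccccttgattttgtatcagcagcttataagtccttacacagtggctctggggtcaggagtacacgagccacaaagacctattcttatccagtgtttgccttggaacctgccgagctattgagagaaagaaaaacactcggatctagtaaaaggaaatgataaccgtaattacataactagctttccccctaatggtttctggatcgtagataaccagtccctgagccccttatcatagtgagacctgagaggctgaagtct
Bgn: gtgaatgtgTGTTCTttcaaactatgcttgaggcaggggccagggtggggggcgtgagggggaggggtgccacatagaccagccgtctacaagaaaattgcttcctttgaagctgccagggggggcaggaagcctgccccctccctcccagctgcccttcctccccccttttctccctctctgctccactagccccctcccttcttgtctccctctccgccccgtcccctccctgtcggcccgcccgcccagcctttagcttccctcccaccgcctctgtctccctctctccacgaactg
Bmp6: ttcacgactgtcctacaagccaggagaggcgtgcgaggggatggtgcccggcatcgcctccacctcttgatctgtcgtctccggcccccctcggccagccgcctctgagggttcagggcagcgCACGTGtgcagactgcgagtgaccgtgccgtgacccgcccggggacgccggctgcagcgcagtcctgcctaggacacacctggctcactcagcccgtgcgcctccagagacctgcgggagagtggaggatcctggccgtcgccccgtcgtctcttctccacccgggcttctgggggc
Scgb3a1: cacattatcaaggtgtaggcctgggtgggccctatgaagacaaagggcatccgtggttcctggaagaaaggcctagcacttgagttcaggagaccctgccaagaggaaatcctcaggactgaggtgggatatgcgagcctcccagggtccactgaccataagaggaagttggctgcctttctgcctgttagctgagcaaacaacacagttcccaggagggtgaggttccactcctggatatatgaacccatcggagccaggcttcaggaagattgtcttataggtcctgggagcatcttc
Serpina3n: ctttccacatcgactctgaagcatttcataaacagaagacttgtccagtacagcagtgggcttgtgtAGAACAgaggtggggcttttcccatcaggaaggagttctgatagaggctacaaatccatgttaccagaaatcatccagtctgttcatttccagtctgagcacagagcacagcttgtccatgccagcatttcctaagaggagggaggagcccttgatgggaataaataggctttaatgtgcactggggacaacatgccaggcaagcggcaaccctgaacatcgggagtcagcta
Bgn and Serpina3n each hold 1 glucocorticoid receptor motif and Bmp6 holds 1 E-box, while the windows of Gkn3 and Scgb3a1 hold none of the 3 motifs. Such short motifs are common. Of 32851 promoters in the RefSeq table, 18.97% hold the receptor motif, 7.15% the E-box and 20.81% the CREB motif. Of the 30 genes named for the size of their difference, 21 have promoters in the table, 25 in all, of which 4 (16%) hold the receptor motif, 3 (12%) the E-box and 2 (8%) the CREB motif. A match is a run of letters and not a bound site.

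The other genes with larger positive differences have diverse roles. Agmo, alkylglycerol monooxygenase, which cleaves ether lipids, was at 5.07, 4.53, 4.89 and 5.20 in CSD7 animals 9, 16, 17 and 25 and at 4.29, 4.42 and 4.37 in CSD1 animals 4, 18 and 19. The groups did not overlap, and the difference was 0.56 (SE 0.12). Agmo passed the threshold when CSD7 animal 16, the lowest of its group, was left out (0.69, adjusted p = 0.0454 in limma), and with array weights (0.55, adjusted p = 0.0431). Within CSD1 the weighted fit rests mostly on animal 19, as given for Gkn3. Over the 18 other settings its difference was between 0.31 and 0.69. In CSD14 it lay at 4.58 to 4.80 and in CSDrec at 4.67 to 4.71.

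Sfrp5, a secreted antagonist of Wnt ligands, was at 5.12, 4.62, 4.56 and 4.37 in CSD7 and at 4.31, 4.15 and 4.32 in CSD1 (difference 0.41, SE 0.13), with the top value in CSD7 animal 9, without which the difference was 0.26. The remaining genes had smaller differences, between 0.27 and 0.37: Smim6, which encodes a small membrane protein, Sct, which encodes the hormone secretin, Scn3b, a sodium channel beta subunit, Antxr1, a collagen-binding receptor, Rbp2, an intracellular retinol carrier, Cdh26, a cadherin, and Ypel2. For Scn3b the values were 4.95, 4.94, 4.71 and 4.76 in CSD7 against 4.63, 4.52 and 4.48 in CSD1, so its groups lay apart, as the naming rule required. For Cdh26 CSD7 animals 16 and 25 (both 3.65) lay next to the highest CSD1 animal (3.64).

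Among genes lower in CSD7, the largest difference without overlap belonged to S100a8, a calcium-binding protein of neutrophils. It was at 2.87, 2.68, 2.55 and 2.88 in CSD7 animals 9, 16, 17 and 25 and at 3.06, 5.92 and 3.18 in CSD1 animals 4, 18 and 19. Only CSD1 animal 18 was clearly above the receptor level, and the mean over the 15 arrays lay below it. The difference was -1.31 (SE 0.50), and it was -0.38 without that animal. The neutrophil genes S100a9 and Retnlg had their highest value in the same animal, at 5.09 and 3.72, against 3.42 to 3.60 and 2.42 to 2.89 in CSD7. The mean over 10 neutrophil markers was 3.15 to 3.27 in CSD7 and 3.22 to 3.81 in CSD1, and 4 of the 10 lay above the receptor level. Among these 10 markers 4 had a positive and 6 a negative difference, with a median of -0.029.

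Small RNAs of the nucleus were also among the lower genes. Rnu2-10, a copy of the U2 RNA of the spliceosome, was at 10.68, 10.74, 10.07 and 10.05 in CSD7 and at 10.96, 10.91 and 10.84 in CSD1 (difference -0.52, SE 0.18), and a second row of the same name had a difference of -0.49. The CSD7 values formed a higher pair, animals 9 and 16, and a lower pair, animals 17 and 25. Copies of this RNA share sequence, so a row cannot be assigned to 1 locus. Scarna9, a guide RNA of Cajal bodies, was at 4.12, 3.87, 3.94 and 3.79 in CSD7 and at 4.77, 4.40 and 4.52 in CSD1 (difference -0.63, SE 0.24). In CSDrec it spread more widely, between 2.86 and 4.15. Rows of the microRNA genes Mir684-1 and Mir684-2, which the rule for naming genes left out, had differences between -0.86 and -0.84 without overlap.

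The other 12 genes of this group had differences between -0.37 and -0.29. Rps27l, a ribosomal protein relative induced by p53, was at 5.82, 5.77, 5.70 and 5.78 in CSD7 and at 5.94, 6.28 and 6.14 in CSD1 (difference -0.35, SE 0.08). Its CSD7 values were tight, and the CSD1 animal nearest to them was animal 4. Fam167b was at 4.91, 4.89, 4.71 and 4.79 in CSD7 and at 5.14, 5.09 and 5.16 in CSD1 (difference -0.30, SE 0.07), tight in both groups. Chmp2b, a subunit of the ESCRT-III membrane scission machinery (-0.33), Nol7 and Fcf1, nucleolar proteins (-0.33 and -0.30), and Uchl3, a deubiquitinase (-0.29), all had CSD1 animal 4 nearest to the CSD7 animals. The same was true of Rbp7, a retinol carrier (-0.32), and Fut8, a fucosyltransferase (-0.31). Trim25, a ubiquitin ligase of antiviral signaling, had a difference of -0.35 to which CSD7 animal 9 at 5.90 contributed most, the other CSD7 animals being at 6.51 to 6.55 and the CSD1 animals at 6.64 to 6.77 (-0.19 without animal 9). Ska2, Zdhhc2 and Gngt2 completed the group.

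A wide contrast lay inside the CSD1 group. Scgb3a1, a secreted protein of the secretoglobin family, was chosen for description after its values were seen, since it had the largest difference of any row (-1.84, SE 0.50) but did not meet the rule on overlap. It was at 5.70, 5.62, 5.24 and 5.79 in CSD7 animals 9, 16, 17 and 25 and at 5.53, 8.73 and 8.03 in CSD1 animals 4, 18 and 19. CSD1 animal 4 thus lay among the CSD7 animals, and the other CSD1 animals lay more than 2 log2 units above all of them. In CSD14 the level was 5.17 to 5.73, and in CSDrec 4.39 to 4.84. Leaving out CSD1 animal 4 gave -2.79 with an adjusted p of 0.00033 in limma, leaving out CSD1 animal 18 or 19 gave -1.19 or -1.54, and over all settings the adjusted p lay between 0.00033 and 1. The weight of CSD1 animal 4 was noticed after the values were seen, and no label sets this animal apart. Lists of other cells differed between the CSD1 animals as well. The mean over choroid plexus and ependyma genes was 4.24, 5.83 and 5.46 in CSD1 animals 4, 18 and 19, the order seen for Scgb3a1, and was 5.86, 5.21, 5.49 and 4.11 in CSD7 animals 9, 16, 17 and 25. The mean over pericyte genes ran the other way in CSD1, at 5.88, 4.86 and 5.20, and was 5.02 to 6.24 in CSD7. The part of these cells in the result was not tested.

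Several genes of the acute phase and of venous endothelium followed the same order of animals. Their lists as a whole went both ways. Of 19 acute phase and STAT3 genes, 8 had a positive and 11 a negative difference, with a median of -0.058. In limma 1 had an unadjusted p below 0.05 with CSD7 lower, where 2.56% of expressed rows had such a p. Lrg1, a secreted glycoprotein induced by inflammation and glucocorticoids, was at 4.66, 4.63, 3.93 and 4.00 in CSD7 and at 4.07, 6.90 and 5.46 in CSD1 (difference -1.18, SE 0.46). Serpina3n, a protease inhibitor of the acute phase, was at 5.64, 3.59, 3.57 and 3.45 in CSD7 and at 3.37, 7.11 and 5.37 in CSD1 (difference -1.22, SE 0.67), where the high CSD7 value belonged to animal 9, which also had the highest astrocyte markers. Lcn2, lipocalin 2, which binds iron-loaded siderophores, was at 5.83, 5.30, 5.28 and 5.84 in CSD7 and at 4.60, 7.13 and 6.58 in CSD1 (difference -0.54, SE 0.43). Without CSD1 animal 18 the difference was -0.47 for Lrg1, -0.31 for Serpina3n and -0.024 for Lcn2, and without CSD1 animal 4 it was -1.88, -2.18 and -1.29 in the same order. Without CSD7 animal 9 that of Serpina3n was -1.75. In all 3 genes CSD1 animal 18 was the highest of the 7 animals and CSD1 animal 4 lay in or below the CSD7 range.

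Ackr1, the Duffy antigen receptor, a chemokine-binding protein of venules, was at 3.84, 3.97, 3.56 and 4.21 in CSD7 and at 3.52, 5.67 and 4.63 in CSD1 (difference -0.72, SE 0.34, -0.19 without CSD1 animal 18 and -1.26 without CSD1 animal 4). Ch25h, cholesterol 25-hydroxylase, whose oxysterol product is induced in inflammation, was at 7.45, 7.07, 7.25 and 6.94 in CSD7 and at 5.07, 9.38 and 7.94 in CSD1. Its CSD7 animals lay together in the middle of a CSD1 range of more than 4 log2 units, so the group difference of -0.29 (SE 0.65) turned to 0.67 without CSD1 animal 18. Adamts9, a matrix protease, also chosen after its values were seen, was at 4.03, 4.13, 4.13 and 4.35 in CSD7 and at 4.26, 5.00 and 4.98 in CSD1 (difference -0.59, SE 0.16), and passed the threshold with array weights (-0.79, adjusted p = 0.0386 in limma), again with most weight in CSD1 on animal 19. Igfbp7, an abundant IGF-binding protein of vessels, was at 11.10, 11.19, 11.13 and 11.25 in CSD7 and at 11.07, 11.75 and 11.63 in CSD1 (difference -0.32, SE 0.12, -0.18 without CSD1 animal 18 and -0.53 without CSD1 animal 4). With these genes too, CSD1 animal 4 lay in or below the CSD7 range.

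**Figure D3:**
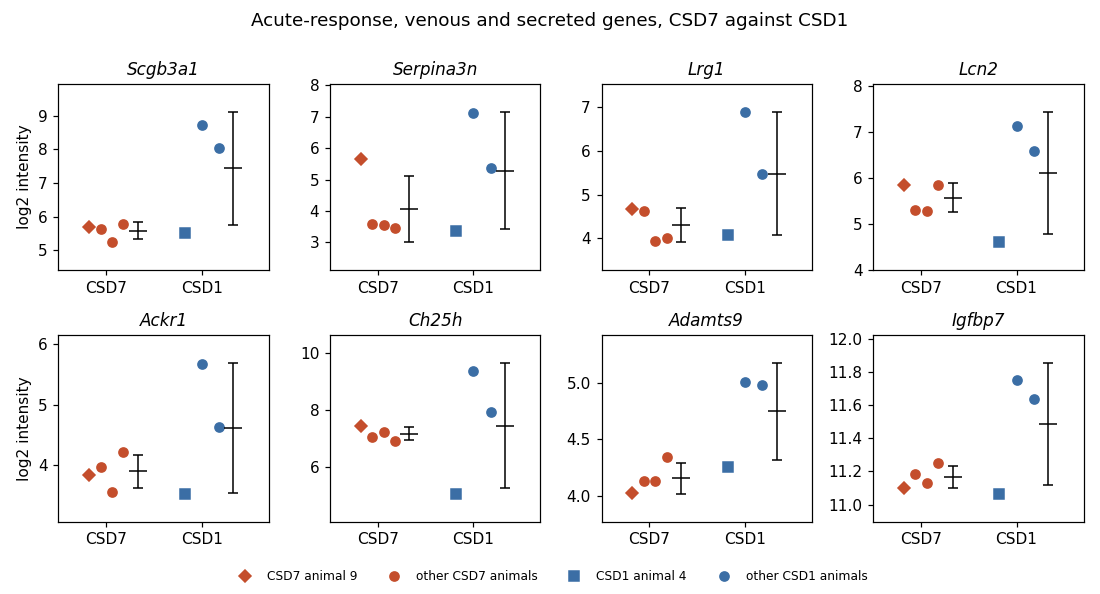
Log2 intensity (vertical axis) of 8 genes in each CSD7 animal (left) and each CSD1 animal (right), with the mean and SD of each group in black. CSD1 animal 4 (square) lies in or below the CSD7 range in all 8 panels, and CSD1 animal 18 lies above every CSD7 animal.

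The same split ran through several lists of response genes, with CSD7 animals close together and CSD1 animals far apart. The SD of the animals' list means was larger in CSD1 for 20 of the 30 pathway lists and larger in CSD7 for 10, among them interferon and MHC class I genes (0.22 in CSD7 and 0.093 in CSD1). Over expressed rows the median SD was 0.155 in CSD7 and 0.131 in CSD1. The mean over 25 glucocorticoid response genes was 7.39, 7.36, 7.55 and 7.31 in CSD7 animals 9, 16, 17 and 25 (SD 0.10), against 6.83, 7.80 and 7.45 in CSD1 animals 4, 18 and 19 (SD 0.49). The CSD7 animals lay between the CSD1 extremes. The group means were 7.40 and 7.36, and of the 25 members 18 had a positive difference with a median of 0.13, which was -0.097 without CSD1 animal 4. The acute phase and STAT3 list of 19 genes had means of 5.95 to 6.17 in CSD7 (SD 0.10) and of 5.64, 6.74 and 6.25 in CSD1 (SD 0.55). For 24 NF-kB and inflammation genes the means were 5.33 to 5.45 in CSD7 (SD 0.05) and 5.11, 5.64 and 5.37 in CSD1 (SD 0.26), with a median difference of -0.0040. For 20 genes of the unfolded protein response the SD was 0.02 in CSD7 and 0.21 in CSD1. The spread of 3 against 4 animals was not tested, and CSD14 animals lay between 7.27 and 7.56 on the glucocorticoid list and CSDrec animals between 6.96 and 6.97.

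Early response genes are transcribed within minutes of a stimulus. Here they were measured many hours after the last defeat session and after digestion of the tissue. Of 24 measured, 20 had a positive difference with a median of 0.19, the largest median of the 30 pathway lists with the values as deposited, and 4 had an unadjusted p below 0.05, where 0.952% of expressed rows had such a p with CSD7 higher. Btg2, an antiproliferative gene, was at 7.35, 7.29, 7.47 and 6.98 in CSD7 and at 6.32, 7.23 and 6.78 in CSD1 (difference 0.50, SE 0.17). Dusp1, a MAP kinase phosphatase that glucocorticoids induce, was at 9.99, 10.16, 10.39 and 10.02 in CSD7 and at 9.21, 10.13 and 9.71 in CSD1 (difference 0.46, SE 0.16). In both, CSD1 animal 18 was at the CSD7 level and animal 4 far below, and without animal 4 the difference was 0.27 for Btg2 and 0.22 for Dusp1. The median of the list was -0.048 without CSD1 animal 4. Mt1, a metallothionein that glucocorticoids and zinc induce, had a difference of 0.33 (SE 0.17), and of 0.16 without that animal.

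**Figure D4:**
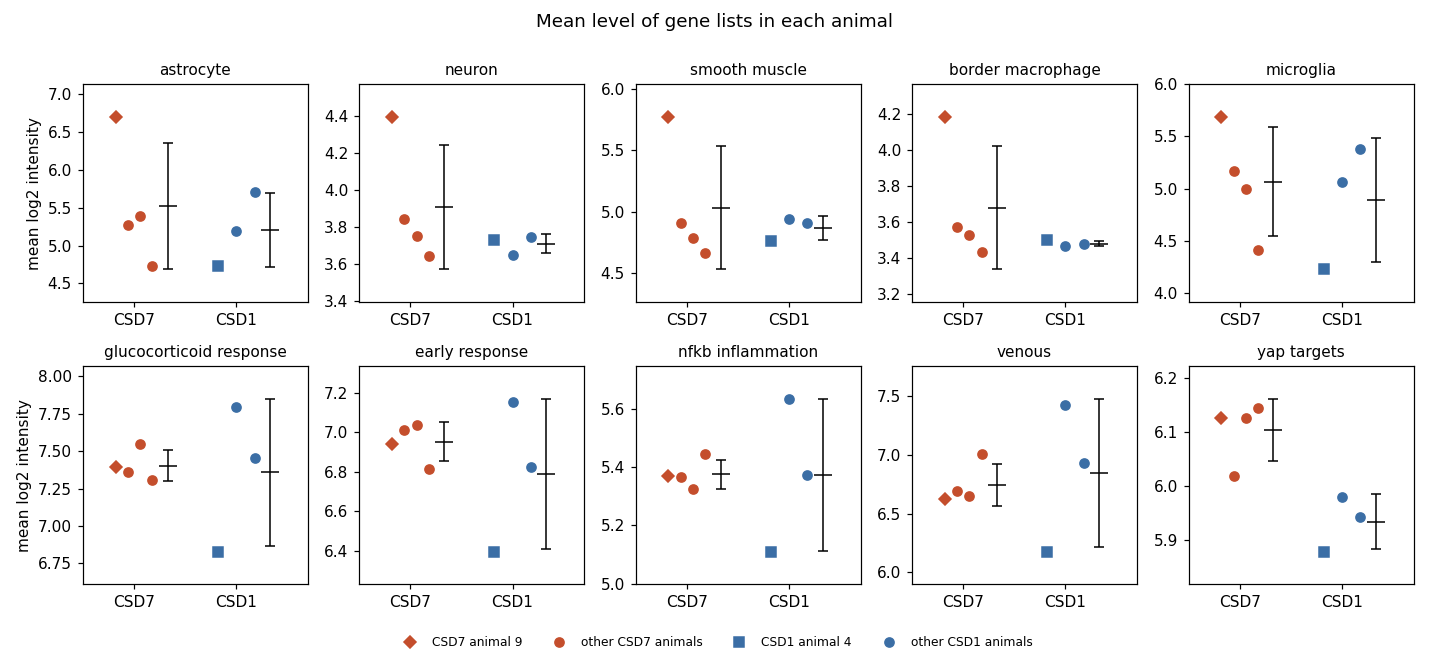
Mean log2 intensity (vertical axis) of 10 gene lists in each CSD7 animal (left) and CSD1 animal (right), with the mean and SD of each group in black. CSD7 animal 9 (diamond) is the highest on the lists of other cells in the upper row, and CSD1 animal 4 (square) is the lowest on the response lists in the lower row, where YAP targets are the list without overlap.

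Arterial and venous markers were read as lists. Of 15 arterial genes 11 had a positive difference with a median of 0.13, and 3 had an unadjusted p below 0.05 (Gkn3, Fbln5 and Alpl), against the 0.952% of expressed rows given for that direction. Gkn3 had itself been named by a rule that required such a p, and Fbln5 was already counted in the matrix list. The count is thus not a result about arterial genes. The mean over the list was 7.00 to 7.46 in CSD7 and 6.81 to 7.27 in CSD1, which overlap, and its median was -0.017 without CSD1 animal 4. Alpl, alkaline phosphatase of arterial and capillary endothelium, was at 7.23, 7.90, 7.85 and 7.97 in CSD7 and at 7.47, 7.47 and 7.20 in CSD1 (difference 0.36, SE 0.14). CSD7 animal 9 lay with the CSD1 animals. Of 12 venous genes 6 had a positive and 6 a negative difference, with a median of -0.036. Their mean was 6.62 to 7.00 in CSD7 and 6.18, 7.43 and 6.93 in CSD1 animals 4, 18 and 19, so that CSD1 spanned the whole range of CSD7.

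Barrier genes had small median differences, -0.041 for 14 tight junction genes (0.013 after quantile normalization of the 15 arrays) and 0.0096 for 23 barrier transporter genes. All of these genes had 95% intervals within a factor of 2 to either side. The same held for all 24 early response, all 24 NF-kB and all 27 oxidative phosphorylation genes, so it is not particular to the barrier. Esam, an adhesion molecule of endothelial junctions, had the largest difference among junction genes, -0.21 (SE 0.09), with 8.63, 8.97, 8.94 and 9.04 in CSD7 and 8.94, 9.18 and 9.18 in CSD1. It was the 1 junction gene with an unadjusted p below 0.05 (0.042, adjusted p = 0.9998 in limma, 95% interval from -0.40 to -0.0084). Such a p with CSD7 lower was found in 2.56% of expressed rows. Cldn12, a claudin, followed with 0.15 (SE 0.09). Among transporters, Lrp1, a lipoprotein receptor, differed by 0.26 (SE 0.22), and by -0.020 without CSD7 animal 9, and Slc38a5, a glutamine transporter, by -0.17 (SE 0.20). Cldn5, the main claudin of brain endothelium, and Slc2a1, its glucose transporter, were added after the values were seen. Cldn5 was at 10.48, 11.12, 10.76 and 10.59 in CSD7 and at 10.55, 11.11 and 10.89 in CSD1 (difference -0.11, 95% interval from -0.45 to 0.22). Slc2a1 was at 12.41, 12.37, 12.48 and 12.51 in CSD7 and at 12.26, 12.59 and 12.50 in CSD1 (difference -0.0056, 95% interval from -0.17 to 0.16). The groups overlapped in both.

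Angiogenesis genes were balanced as well, with 12 of 22 positive and a median of 0.0049. Esm1 and Angpt2, markers of sprouting vessels, had the largest differences, -0.31 (SE 0.21) and -0.29 (SE 0.18), and their groups overlapped. The receptors Kdr (0.0073, 95% interval from -0.31 to 0.33), Tek (-0.0050, from -0.27 to 0.26) and Eng (0.11, from -0.09 to 0.31) did not pass either. Of 23 coagulation genes, 12 had a positive difference with a median of 0.029. F5, coagulation factor V, was at 6.35, 6.20, 6.71 and 6.74 in CSD7 and at 5.76, 6.40 and 6.13 in CSD1 (difference 0.40, SE 0.19, and 0.23 without CSD1 animal 4). Vwf, von Willebrand factor, was at 8.60, 8.59, 8.73 and 9.11 in CSD7 and at 7.95, 9.20 and 8.78 in CSD1, so both the lowest and the highest animal were CSD1 mice. Its difference of 0.11 (SE 0.22) turned to -0.24 without CSD1 animal 4. P2ry1, a purine receptor, showed the same (0.21, and -0.062 without that animal). P2ry12, a purine receptor of platelets and microglia (0.29), Fermt3, which activates integrins in blood cells (0.18), and Gp9, a platelet glycoprotein (0.38), were highest in CSD7 animal 9. Anxa2, annexin A2, a cofactor of fibrinolysis, differed by -0.22 (SE 0.16), and by -0.48 without CSD1 animal 4 and -0.016 without CSD1 animal 18.

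Of 16 chemokine and related genes measured, 11 lay above the receptor level, 12 had a positive difference and the median was 0.033. The 4 that the study names, ligands of leukocyte recruitment, were at or near that level in both groups. Ccl2 was at 3.94, 3.50, 3.42 and 3.36 in CSD7 and at 3.51, 3.38 and 3.44 in CSD1. Ccl12 (2.36 to 2.95 in CSD7 and 2.35 to 2.76 in CSD1) lay below that level. Ccl24 (3.21 to 3.81 in CSD7 and 3.11 to 3.17 in CSD1) and Cxcl2 (3.0 to 3.65 in CSD7 and 2.97 to 3.20 in CSD1) had their top value in CSD7 animal 9. In CSDrec, outside this comparison, Ccl24 reached 4.41.

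Differences of metabolic genes were small. All 27 genes of oxidative phosphorylation measured had a negative difference, from -0.29 to -0.0030 with a median of -0.056, but 1 had an unadjusted p below 0.05, where 2.56% of expressed rows had such a p with CSD7 lower. It was Ndufv2, a complex I subunit, at 6.44, 6.36, 6.32 and 6.38 in CSD7 and 6.45, 6.61 and 6.62 in CSD1 (difference -0.19, SE 0.06). Ndufa1, another subunit, had the largest difference (-0.29, SE 0.20). The mean over the list was 6.36 to 6.57 in CSD7 and 6.29, 6.72 and 6.6 in CSD1 animals 4, 18 and 19. CSD1 animal 4 was the lowest of the 7 animals and CSD1 animals 18 and 19 the highest, and the 27 genes share these animals. The median was -0.18 without CSD1 animal 4 and 0.020 without CSD1 animal 18. Of 32 cytosolic ribosome genes listed, 16 were measured. Of these 15 had a negative difference with a median of -0.087, led by Rpl27 (-0.24, SE 0.12) and Rps4x (-0.19, SE 0.12), and 0 had an unadjusted p below 0.05 in limma. The list mean was 6.385 to 6.636 in CSD7 and 6.386, 6.738 and 6.674 in CSD1 animals 4, 18 and 19. The median ran from -0.19 to -0.014 over all settings.

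Glycolysis and citrate cycle genes had a median of 0.0076 with 13 of 23 positive. Pfkfb3, which drives glycolysis in endothelium, differed by 0.24 (SE 0.13) and Tpi1, triosephosphate isomerase, by -0.13 (SE 0.13). Antioxidant genes had a median of -0.022 with 11 of 24 positive. Txnrd1, thioredoxin reductase, was tight at 5.88, 5.86, 5.85 and 5.83 in CSD7 and at 5.87, 6.18 and 6.06 in CSD1 (difference -0.18, SE 0.08), and Slc7a11, the cystine transporter, was at 4.45 in CSD7 animal 9 and at 2.96 to 3.40 in every other animal of both groups. Cholesterol synthesis genes had a median of 0.0022 with 8 of 16 positive.

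**Figure D5:**
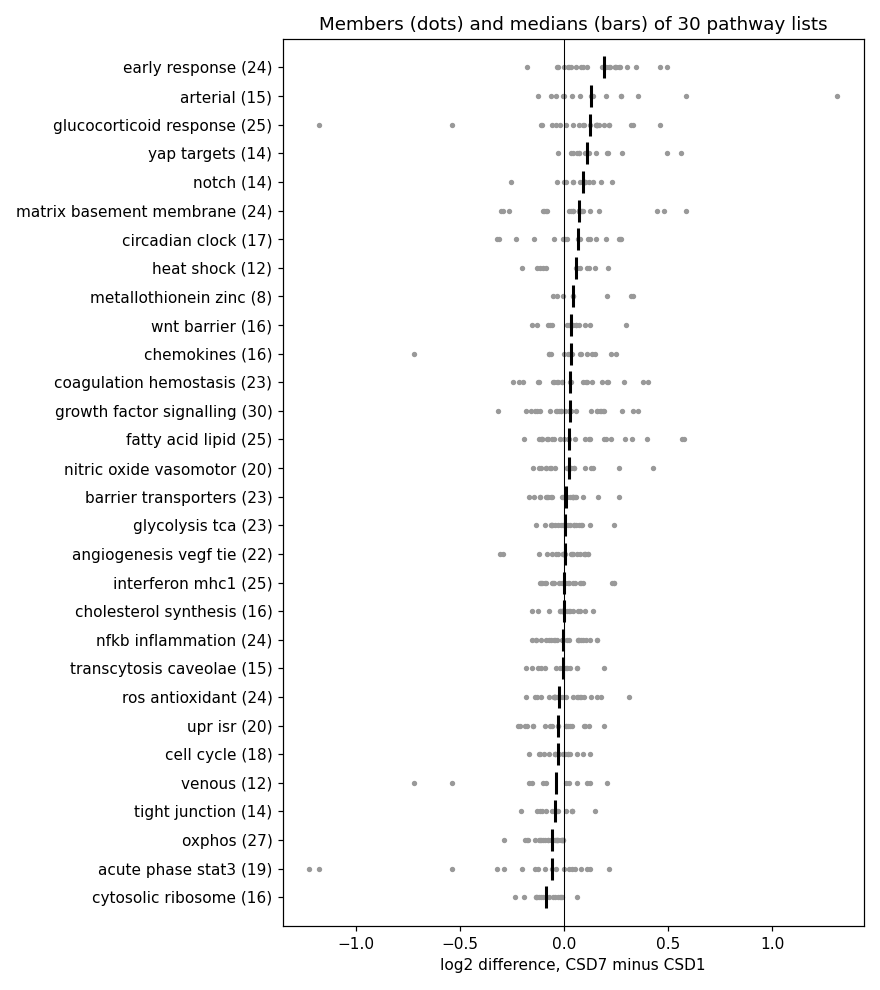
Log2 difference between CSD7 and CSD1 (horizontal axis) of each measured gene (grey dots) and the median (black bar) of 30 pathway lists, ordered by median, with the number of genes in parentheses. Early response genes have the highest median (0.19) and cytosolic ribosome genes the lowest (-0.087), and Gkn3 is the outlying dot of the arterial list.

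Markers of several other cells had positive differences, which for astrocyte, neuron and border macrophage genes came mostly from 1 animal. All 14 astrocyte genes (median 0.30), all 13 neuron genes (0.12), all 12 border macrophage genes (0.21) and all 23 microglia genes (0.15) had a positive difference, and 0 of these had an unadjusted p below 0.05. The mean over the astrocyte list was 6.70, 5.27, 5.39 and 4.72 in CSD7 animals 9, 16, 17 and 25, against 4.73, 5.19 and 5.70 in CSD1 animals 4, 18 and 19. Snap25, a synaptic protein of neurons, was at 6.85 in CSD7 animal 9 and at 3.36 to 3.77 in the other CSD7 animals, against 3.29 to 3.93 in CSD1 (difference 0.83, SE 0.58, and 0.0083 without that animal). Syt1, synaptotagmin, Slc1a2 and Mlc1, a glutamate transporter and a membrane protein of astrocytes, and Mrc1 and Pf4, of border macrophages, were highest in the same animal. So were Acta2 and Tagln of smooth muscle, at 8.17 and 5.87 against 5.55 to 6.30 and 4.11 to 4.35 in CSD1, and Ppbp of platelets. Without CSD7 animal 9 the medians were -0.061 for astrocyte, 0.015 for neuron, 0.019 for border macrophage and -0.015 for microglia genes.

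Microglial RNA varied in both groups apart from that animal. Csf1r, the receptor that keeps microglia alive, was at 7.84, 6.77, 6.58 and 5.44 in CSD7 and at 5.01, 6.70 and 7.08 in CSD1, and P2ry13, a purine receptor of microglia, had the same order of animals within each group. CSD7 animal 25 and CSD1 animal 4 were the low ends. Without CSD1 animal 4 the difference was -0.23 for Csf1r and -0.18 for P2ry13, and without CSD7 animal 9 it was 0.0026 and 0.13. For the genes described first, without CSD7 animal 9 Gkn3 differed by 1.53, Bgn by 0.54, Ccn2 by 0.52 and Fbln2 by 0.51, so Gkn3 and Fbln2 were further apart and Bgn and Ccn2 somewhat closer.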

How the data were processed

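The deposited table holds log2 values, which the authors had corrected for background by RMA, normalized by quantiles and summarized per probe set, in Partek per the methods and in Affymetrix Expression Console per the labels. No source used here gives the build behind the array annotation, and the array type differs between labels and methods. Of 72688 rows, 6732 control rows were left out, and of the 65956 tested 30638 carried 1 gene symbol, 2176 several and 33142 none. Values were used as deposited. Each row was fitted by limma (lmFit and eBayes) over the 15 arrays of defeated mice in 4 groups (11 residual and 3.53 prior degrees of freedom), and p was adjusted by Benjamini-Hochberg over all rows, with a threshold of 0.05. Per the methods, each collection day held mice of several conditions. The day of each array was not known here and not tested, and p-values measure the spread between these animals. The number of arrays limits the precision. The fit was also run on simulated data with independent noise in each row and array. Those data held no animal that stood apart on many genes, so the run does not show how the fit deals with such animals.

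The comparison, the members and the 44 gene lists (829 memberships, 747 measured) were chosen with earlier results of these data known. Where a gene had several rows, the one with the highest mean was used. Genes were named by a rule: the 15 largest differences in each direction among rows with 1 symbol and a group mean above the receptor level (not those of microRNAs, nucleolar RNAs, receptors of smell and taste, pseudogenes and predicted genes), an unadjusted p below 0.05 and no overlap between animals (65 rows higher and 54 lower met it), 2 to 4 members with the largest absolute difference of each list described, and genes the study names (Serpine2 had no row of its own). Alternatives were other normalization, other sets of arrays, array weights, a label number covariate, other filters and priors, and leaving out animals. R 4.3.3, limma 3.58.1, data.table (version 1.17.8), Python 3.11.15, matplotlib 3.10.9 and numpy 2.4.6 were used.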

Additional observations from a re-analysis of the deposited data

Results flagged for a closer look

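In 13 of 90 genes examined, 1 CSD7 animal lay far from the remaining CSD7 animals (a gap to the nearest wide against the range of the group), and in all 13 it was animal 9. About 1 group in 20 is set apart in this way by chance, but these genes share 1 array and some were chosen for large differences that animal 9 itself gave, so they are not independent cases. Animal 9 was high for Snap25 (6.85, against 3.36 to 3.77 in the other CSD7 animals), Syt1 (4.95, against 3.02 to 3.19), Serpina3n (5.64, against 3.45 to 3.59), Mrc1 (4.81, against 2.71 to 3.04) and Tagln (5.87, against 4.23 to 4.45). It was also high for Slc7a11 (4.45, against 3.12 to 3.27), Ccl24 (3.81, against 3.21 to 3.25), Cxcl2 (3.65, against 3.0 to 3.09) and S100a9 (3.60, against 3.42 to 3.44). It was low for the endothelial genes Alpl (7.23, against 7.85 to 7.97), Eng (10.33, against 10.63 to 10.69) and Tgfb2 (7.83, against 8.28 to 8.37) and for Trim25 (5.90, against 6.51 to 6.55). The part of other cells in these values was not tested.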

How the results depend on the processing

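Counts of rows changed with the settings, and rows past the adjusted threshold stayed few. Array weights, which gave CSD1 animal 19 a weight of 8.89 and the others 0.40 to 1.45, called 2 rows higher and 9 lower, with 4519 and 4569 at an unadjusted p below 0.05. Animals numbered 16 to 19 alone gave 2 rows lower, 1535 higher and 2131 lower at that p, and 14782 and 8775 without overlap. At that p there were 506 rows higher with only the 7 arrays, 367 higher and 543 lower with all 19 arrays, 2093 and 1853 with the label number as a covariate, and 225 and 646 with expressed rows only, where 289 and 464 did not overlap. Leaving out animals gave 0 to 1 row called higher and 0 to 2 lower, 414 to 1813 and 692 to 2883 at the unadjusted p, and 1612 to 9374 and 1634 to 5739 without overlap. CSD1 animal 4 moved the counts most among single animals (1813 higher and 2883 lower at the unadjusted p without it).

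Of single genes described, none past the threshold as deposited could be lost, since there was none. Scgb3a1 passed with 4 settings, Agmo with 2, and Gkn3 and Adamts9 with 1. Several differences changed sign. With quantile normalization Tek was 0.14, Ccl12 -0.0093, Slc2a1 0.079 and Cldn5 0.013. With array weights Vwf was -0.026, Tek 0.038, Ccl12 -0.17, P2ry13 -0.49, Csf1r -0.41, Mlc1 -0.24 and Slc1a2 -0.48. With the label covariate Vwf was -0.055 and Kdr -0.033. With numbers 16 to 19 alone Vwf was -0.33, P2ry1 -0.11, Tek 0.042, Ccl12 -0.18, Cxcl2 -0.041, Slc7a11 -0.12, P2ry13 -0.095, Csf1r -0.21, Slc1a2 -0.46, Acta2 -0.097 and Mrc1 -0.012. When animals were left out, signs also changed in these ranges: Vwf -0.24 to 0.39, P2ry1 -0.062 to 0.49, P2ry12 -0.19 to 0.53, Fermt3 -0.029 to 0.27, Kdr -0.073 to 0.15, Tek -0.068 to 0.12, Ccl12 -0.21 to 0.12, Ccl2 -0.018 to 0.17, Cxcl2 -0.076 to 0.14, Ch25h -1.57 to 0.67, Lrp1 -0.073 to 0.45, Slc38a5 -0.37 to 0.085, Igfbp5 -0.015 to 0.52, Slc7a11 -0.12 to 0.44, P2ry13 -0.48 to 0.91, Csf1r -0.62 to 0.80, Mlc1 -0.45 to 1.29, Slc1a2 -0.77 to 1.20, Snap25 -0.033 to 1.17, Syt1 -0.010 to 0.63, Acta2 -0.32 to 0.81, Tagln -0.0038 to 0.62, Mrc1 -0.10 to 0.65, Pf4 -0.027 to 0.55, Slc2a1 -0.099 to 0.063 and Cldn5 -0.26 to 0.016. The cause was not tested.

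No paired analysis was possible because the label numbers are unique to each animal and the collection day that animals shared is not assigned to arrays in the sources used here. Limits are the 3 CSD1 animals, of which 1 decides several values, the choice of CSD7 mice by behavior, and genes near the receptor level.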
